A study of Homo sapiens with 9 samples.

Results

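The genes described here are the 4 vascular endothelial growth factor (VEGF) ligands VEGFA, VEGFB, VEGFC and PGF, their 3 tyrosine kinase receptors FLT1, KDR and FLT4, and the 2 neuropilins NRP1 and NRP2. They were chosen by gene symbol, with earlier results of these data known. They make up 9 of the 29740 genes of the deposited table and 9 of the 14740 genes that passed the filter on low counts. RNA was sequenced from HMEC-1, an immortalised line of human dermal microvascular endothelial cells. Trimethylamine N-oxide (TMAO), a metabolite that derives from the gut microbiota, was given at 50 µM for 24H or 48H, and the control cells (CTRL) received none. Each of these groups has 3 libraries. Cells were kept in serum-starved medium during TMAO treatment, and the study's methods do not describe the medium of the controls separately. The study asked how the transcript response of microvascular endothelium to TMAO differs between the shorter and the longer exposure. All libraries came from the same cell line, so they share its genotype. The study pooled its controls over time-points, so the culture time of a given control is not known, and an effect of 48H in culture and an effect of 48H of TMAO cannot be told apart. The study's methods speak in general of independent experiments, but neither they nor the labels tie the sequenced libraries of a group to separate cultures, so p-values measure the spread between libraries, which may be technical.

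In the vessel wall, VEGF ligands act as dimers that bind receptor tyrosine kinases on endothelial cells. VEGFA binds KDR, the receptor that carries most of the growth, migration and permeability response, and also FLT1, which binds it more tightly but signals weakly and acts largely as a decoy. VEGFB and PGF bind FLT1 alone among the receptors, while VEGFC, once cut to its mature form, binds FLT4 (the receptor of lymphatic growth) and KDR. NRP1 and NRP2 are co-receptors without a kinase domain that bind VEGF and, with plexins, the class 3 semaphorins.

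Total estimated counts ran from 25205756 to 36927373 per library. Genes for ribosomal RNA took 31.5% of the counts in TMAO 24H replicate 1 and 1.64% to 7.46% in the other libraries, and leaving this library out changed no call of the 9 genes. Levels are given as CPM (counts scaled to a common library size), scaled by the trimmed mean of M values (TMM), as mean ± SD over 3 libraries. The endothelial label was checked with 11 markers, of which all 11 passed the filter. PECAM1, a junction protein of endothelium, ran from 277 to 365 CPM over the 9 libraries, and CDH5 (VE-cadherin) from 552 to 747 CPM. Other endothelial markers were much lower, with CLDN5 at 1.21 to 1.89 CPM and ESAM at 10.3 to 14.9 CPM. The lymphatic markers PROX1 and LYVE1 stayed at or below 0.295 and 0.447 CPM and CCL21 had fewer than 10 counts in every library, whereas PDPN, which other cell types also make, was at 65.1 to 107 CPM. The leukocyte markers summed to between 0.847 and 1.36 CPM, with CD3E at 0 throughout.

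Compared per length of transcript, in CPM per kilobase of the median annotated transcript, the control cells held most NRP2 (123 ± 13.6), followed by PGF (59.6 ± 2.71), NRP1 (52.4 ± 3.23) and KDR (31.6 ± 2.84). VEGFB (24.9 ± 0.527) and VEGFA (19.4 ± 1.46) came next, and VEGFC was lowest at 7.15 ± 1.09. FLT4 (12.4 ± 0.259) and FLT1 (12.0 ± 0.862) overlapped between control libraries, the only neighbours in the order that did. This order depends on the transcript length used. With the longest transcript, KDR led at 28.6 CPM per kilobase, NRP2 stood in the fourth place at 19.7, and VEGFA, whose longest transcript has 12167 bases against a median of 1098.5, came last at 1.76. VEGFD, listed under its older symbol FIGF, is the other ligand of FLT4 and had 1 count in CTRL replicate 1, 1 count in TMAO 24H replicate 1 and 0 in the other libraries, and was not tested.

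The sequences upstream of 4 of these genes are printed here because PGF, KDR and NRP2 fell at 48H and no such change passed for FLT1. Each is the 250 bases before the annotated start in RefSeq (GRCh38.p14), read 5′ to 3′ on the gene's strand, with capitals on every GC box (GGGCGG or CCGCCC, the core of the binding site of SP1-type factors). The KDR window is chr4:55125596-55125845 on the minus strand, that of NRP2 is chr2:205682251-205682500 on the plus strand, that of PGF is chr14:74955598-74955847 on the minus strand, and that of FLT1 is chr13:28495129-28495378 on the minus strand.
KDR: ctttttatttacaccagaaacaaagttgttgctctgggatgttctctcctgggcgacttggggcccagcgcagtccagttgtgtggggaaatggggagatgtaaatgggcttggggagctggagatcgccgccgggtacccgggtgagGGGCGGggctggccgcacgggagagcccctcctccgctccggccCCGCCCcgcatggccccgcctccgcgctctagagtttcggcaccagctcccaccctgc
NRP2: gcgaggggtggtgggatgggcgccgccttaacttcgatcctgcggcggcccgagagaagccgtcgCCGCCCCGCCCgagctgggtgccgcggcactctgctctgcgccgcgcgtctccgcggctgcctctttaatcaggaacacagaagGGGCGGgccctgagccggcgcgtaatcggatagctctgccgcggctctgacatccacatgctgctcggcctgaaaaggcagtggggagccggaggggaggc
PGF: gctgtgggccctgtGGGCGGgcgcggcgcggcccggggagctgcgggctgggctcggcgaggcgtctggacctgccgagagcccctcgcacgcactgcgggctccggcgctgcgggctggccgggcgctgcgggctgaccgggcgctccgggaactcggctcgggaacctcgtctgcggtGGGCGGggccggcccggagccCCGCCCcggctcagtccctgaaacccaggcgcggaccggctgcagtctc
FLT1: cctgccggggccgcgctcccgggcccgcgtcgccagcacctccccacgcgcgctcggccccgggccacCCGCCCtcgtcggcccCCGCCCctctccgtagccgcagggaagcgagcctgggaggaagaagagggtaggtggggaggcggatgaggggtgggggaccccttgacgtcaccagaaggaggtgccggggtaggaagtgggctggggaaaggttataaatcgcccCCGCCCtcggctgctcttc
RefSeq entries matched 6 of the 9 genes, with 2 starts for PGF and so 7 windows, and none for VEGFA, FLT4 and NRP1. GC boxes numbered 2 in the KDR window, 3 in NRP2, where 2 of them overlap by a base, 3 in the PGF window shown and 3 in FLT1. All 7 windows held a GC box, as did 42.6% of the 35116 annotated promoter windows of the same length. GC content was 65.2% for KDR, 70.0% for NRP2, 80.0% for PGF and 73.2% for FLT1. The core of the hypoxia element (ACGTG or GCGTG on either strand, in 43.2% of all windows) occurred 1 time each in the FLT1 and PGF windows shown and 0 times in those of KDR and NRP2. TATAAA, searched on both strands and present in 10.7% of all windows, occurred in the FLT1 window and in none of the other 6. The ETS core (GGAA or TTCC, in 92.7% of all windows) occurred 4 times in FLT1, 2 times in PGF and 1 time each in KDR and NRP2. Of the windows not shown, that of VEGFB held 6 GC boxes, 1 hypoxia core and 1 ETS core. That of VEGFC held 2, 1 and 2 of these, and the second PGF window 2, 0 and 3. A match of letters is a description and not evidence of a bound site.

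At 48H, 5 of the 9 genes were lower than in CTRL: NRP1, PGF, NRP2, KDR and FLT4. None of the 9 was higher by the same test, an edgeR quasi-likelihood fit across all 14740 tested genes with a Benjamini-Hochberg adjusted p under 0.05. At 24H none of the 9 passed it. The plot of levels by library shows the 9 genes in every sample.

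**Figure D1:**
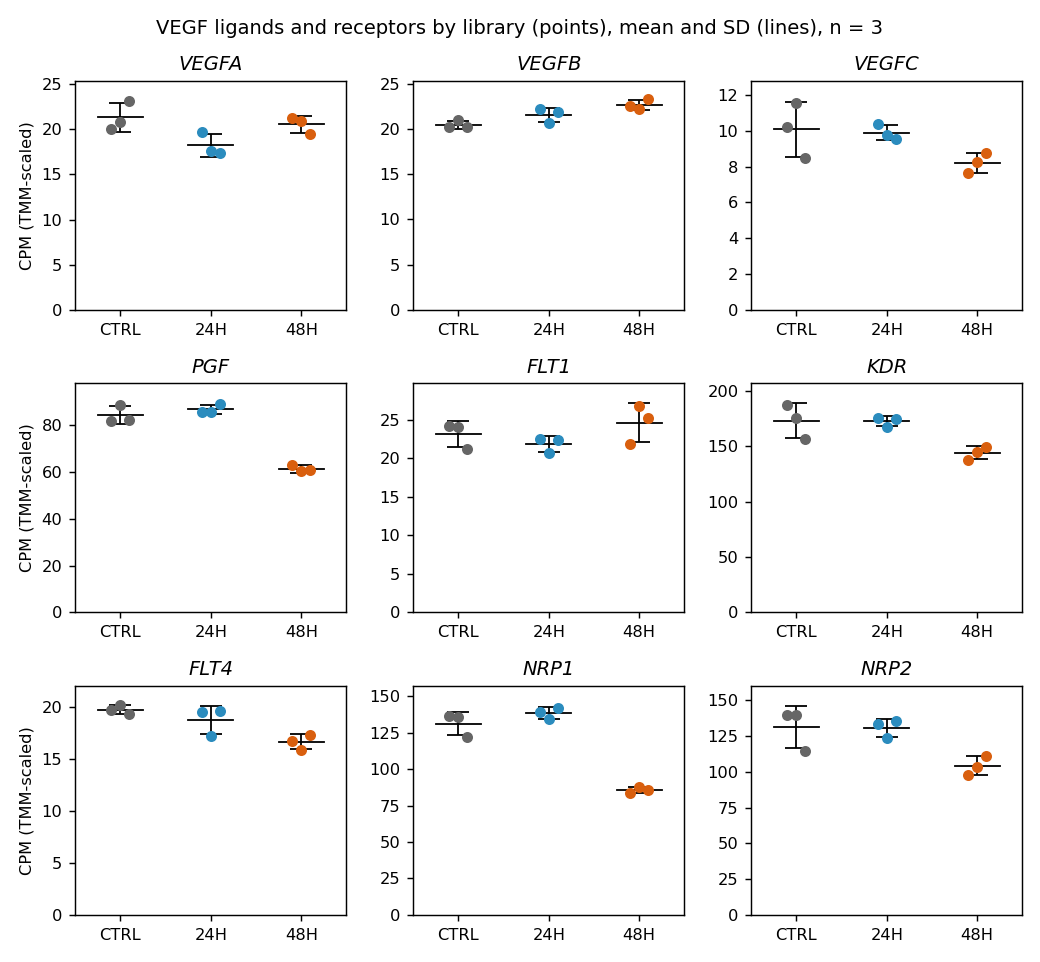
TMM-scaled CPM (vertical axes, from 0) of the 9 genes in CTRL, TMAO 24H and TMAO 48H, each point 1 library, horizontal lines the mean and bars the SD of 3 libraries. The 48H points of PGF, KDR, FLT4, NRP1 and NRP2 lie below all 3 controls, while those of VEGFA, VEGFC and FLT1 overlap with the controls and those of VEGFB lie above them.

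Among the ligands, PGF (placental growth factor, which binds FLT1) was the one whose fall at 48H passed the test. Its level was 81.7, 88.4 and 81.9 CPM in the CTRL libraries, 85.5, 85.4 and 88.9 CPM at 24H, and 63.0, 60.1 and 60.5 CPM at 48H. The 48H libraries lay below all the others, and the CTRL and 24H libraries overlapped. The log2 fold change at 48H was -0.46 (SE 0.0443, 95% interval -0.55 to -0.36, edgeR adjusted p = 6.39e-05), a level of 0.728 times that of CTRL. At 24H it was 0.044 (SE 0.0442, adjusted p = 0.907). Between the time-points PGF fell by 0.50 on the log2 scale (SE 0.0443, adjusted p = 1.59e-05).

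VEGFA, the main ligand of KDR, was measured at 20.1, 20.8 and 23.2 CPM in CTRL, 19.7, 17.6 and 17.4 CPM at 24H and 21.2, 20.9 and 19.4 CPM at 48H. The 24H libraries all lay below the controls, the closest pair being 19.7 and 20.1 CPM, whereas the 48H libraries overlapped with the controls. Against CTRL, the 24H change was -0.23 on the log2 scale (SE 0.0746, 95% interval -0.39 to -0.069), with an unadjusted p of 0.00858 and an edgeR adjusted p of 0.519, so it did not pass. VEGFA was the 1 gene of the 9 with an unadjusted p under 0.05 at 24H, as were 7.24% of all tested genes, and the 1 gene whose 24H and CTRL libraries did not overlap, against 7.52% of all tested genes that were lower without overlap and 6.73% that were higher. At 48H the log2 fold change was -0.056 (95% interval -0.22 to 0.10, adjusted p = 0.689).

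VEGFB, a ligand of FLT1 linked to fatty acid uptake and vessel survival, was at 20.2, 20.9 and 20.2 CPM in CTRL, 22.2, 20.7 and 21.8 CPM at 24H and 22.5, 22.2 and 23.3 CPM at 48H. The 48H libraries lay above all the others by a small margin. At 48H the change was 0.15 on the log2 scale (SE 0.0573, 95% interval 0.025 to 0.27, unadjusted p = 0.0220) and did not pass after adjustment (edgeR adjusted p = 0.118). It passed when GC content and transcript length were corrected for, at 0.24 (adjusted p = 0.0187).

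VEGFC, the ligand that drives lymphatic growth through FLT4, had the lowest CPM of the 9 genes, without scaling by transcript length. It was at 10.2, 11.6 and 8.48 CPM in CTRL, 10.4, 9.78 and 9.54 CPM at 24H and 7.65, 8.25 and 8.78 CPM at 48H. CTRL replicate 3 was low and lay within the 48H range. At 48H VEGFC was at -0.29 on the log2 scale (SE 0.110, 95% interval -0.53 to -0.057, edgeR unadjusted p = 0.0190). It did not pass after adjustment (adjusted p = 0.108). Without CTRL replicate 3 it was -0.41 and passed (adjusted p = 0.0254). Counts of VEGFC lay between 200 and 353 per library, the fewest of the 9 genes.

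Among the kinase receptors, KDR (VEGFR-2) was the most abundant and fell at 48H. It was at 187, 176 and 157 CPM in CTRL, 176, 168 and 175 CPM at 24H and 138, 145 and 149 CPM at 48H. CTRL and 24H overlapped, and all 3 libraries at 48H lay below both. The log2 fold change at 48H was -0.27 (SE 0.0576, 95% interval -0.39 to -0.14, edgeR adjusted p = 0.0110), or 0.831 times CTRL. At 24H it was -0.0040 (95% interval -0.13 to 0.12, adjusted p = 0.993). Between the time-points KDR fell by 0.26 on the log2 scale (adjusted p = 0.0137), and this call was lost without TMAO 24H replicate 3 (-0.25, adjusted p = 0.0587) or without TMAO 48H replicate 2 (-0.27, adjusted p = 0.0525).

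FLT1 (VEGFR-1), which binds VEGFA, VEGFB and PGF, showed no change that passed. Its level was 24.2, 24.1 and 21.3 CPM in CTRL, 22.5, 20.7 and 22.5 CPM at 24H and 21.8, 26.8 and 25.3 CPM at 48H. The 3 groups overlapped. Its change was 0.088 on the log2 scale at 48H (SE 0.0807, 95% interval -0.086 to 0.26, edgeR adjusted p = 0.535) and -0.082 at 24H (SE 0.0807, adjusted p = 0.903). Counts per gene do not separate the membrane receptor from the secreted form of FLT1 that is made from the same gene.

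FLT4 (VEGFR-3), the receptor of VEGFC, was at 19.7, 20.2 and 19.4 CPM in CTRL, 19.5, 17.2 and 19.6 CPM at 24H and 16.8, 15.9 and 17.4 CPM at 48H. The 48H libraries lay below all controls, although the highest of them, at 17.4 CPM, lay above the lowest at 24H. At 48H the change was -0.24 on the log2 scale (SE 0.0693, 95% interval -0.39 to -0.095, edgeR adjusted p = 0.0407), or 0.844 times CTRL. This call lay close to the threshold and was lost in 6 of 9 fits with 1 library left out, namely without CTRL replicate 1 (-0.25, adjusted p = 0.0907), CTRL replicate 2 (-0.23, 0.125), CTRL replicate 3 (-0.26, 0.0580), TMAO 24H replicate 3 (-0.24, 0.0536), TMAO 48H replicate 1 (-0.25, 0.0651) or TMAO 48H replicate 2 (-0.21, 0.148). It was also lost with only the 2 groups fitted (-0.25, adjusted p = 0.0564) and with a correction for GC content and transcript length (-0.15, adjusted p = 0.213). Between the time-points the difference was -0.17 (SE 0.0693, adjusted p = 0.160).

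The co-receptor NRP1 showed the largest change of the 9 genes at 48H, measured by the size of the log2 fold change. Its level was 136, 136 and 122 CPM in CTRL, 139, 134 and 142 CPM at 24H and 83.7, 87.7 and 85.4 CPM at 48H. The 48H libraries lay well below all others, with CTRL and 24H overlapping. The log2 fold change at 48H was -0.62 (SE 0.0477, 95% interval -0.72 to -0.51, edgeR adjusted p = 1.14e-05), or 0.652 times CTRL, and it ran from -0.67 to -0.59 when each library was left out in turn. Between the time-points NRP1 fell by 0.70 on the log2 scale (SE 0.0477, adjusted p = 2.98e-06). At 24H the log2 fold change was 0.078 (SE 0.0474, 95% interval -0.024 to 0.18, adjusted p = 0.795).

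NRP2, the neuropilin that binds VEGFC as well as semaphorins, fell by less. It was at 139.6, 139.9 and 114.5 CPM in CTRL, 133.7, 123.7 and 135.4 CPM at 24H and 97.9, 103.8 and 111.1 CPM at 48H. CTRL replicate 3 came close to the highest 48H library without reaching it. The log2 fold change at 48H was -0.33 (SE 0.0720, 95% interval -0.49 to -0.18, edgeR adjusted p = 0.0112), or 0.794 times CTRL. The call was lost without CTRL replicate 1 (-0.29, adjusted p = 0.0519), without CTRL replicate 2 (-0.28, adjusted p = 0.0609) or without TMAO 48H replicate 2 (-0.33, adjusted p = 0.0511). Against 24H NRP2 fell by 0.33 (adjusted p = 0.0137), a call lost without TMAO 24H replicate 3 (-0.30, adjusted p = 0.0645) or TMAO 48H replicate 2 (-0.32, adjusted p = 0.0598).

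**Figure D2:**
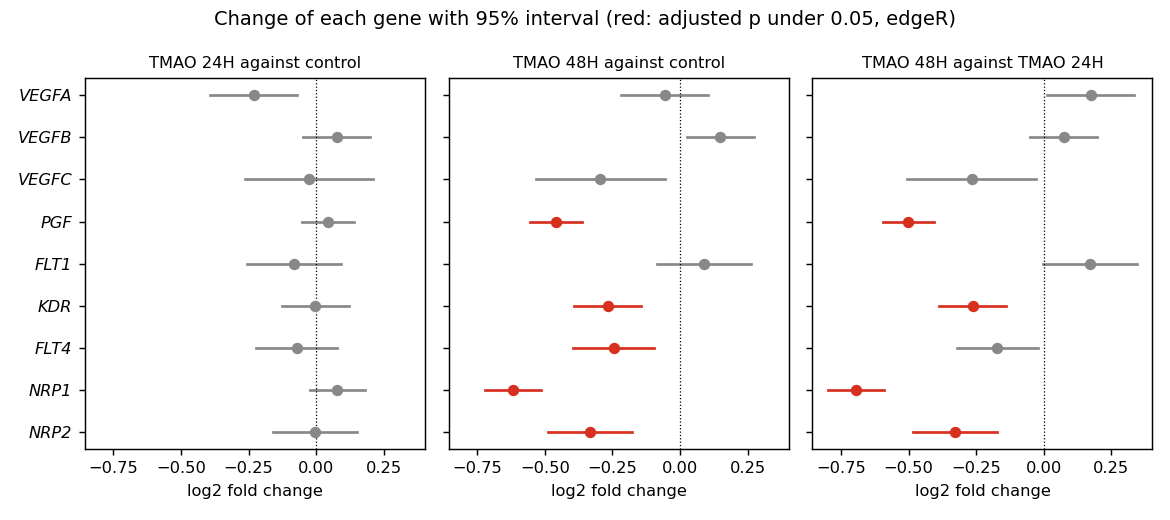
Log2 fold change (horizontal axes) of each of the 9 genes in the 3 comparisons, points the edgeR estimate and lines its 95% interval, in red where the adjusted p was under 0.05. At 24H against control no point is red, at 48H against control 5 are, from FLT4 at -0.24 to NRP1 at -0.62, and at 48H against 24H 4 are.

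Set against all tested genes, the counts were as follows. At 24H, 0 of the 9 genes passed, where 0.0950% of all tested genes passed in either direction (14 genes) and 0.0475% also reached the 1.4-fold change that the study asked for. At 48H, 5 of 9 passed as lower, where 5.29% of all tested genes did so and 10.4% passed in either direction. The libraries of 5 of the 9 genes lay below all controls without overlap at 48H, against 13.0% of all tested genes, and those of 1 lay above, against 14.7%. Of the 9, 1 gene (NRP1) also reached a 1.4-fold change, against 1.80% of all tested genes. The median log2 fold change of the 9 at 48H was -0.27, and that of all tested genes was 0.0040.

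Between 24H and 48H, 4 of 9 (NRP1, PGF, NRP2 and KDR) passed as lower and 0 as higher, against 3.76% of all tested genes lower and 7.52% in either direction. Of those, PGF and NRP1 reached a 1.4-fold change, against 1.70% of all tested genes. The 48H libraries lay below those of 24H without overlap for 5 genes (the 4 and VEGFC), where 13.0% of all tested genes did so, and above them for 1 gene (VEGFB), where 14.7% did. Both time-points were compared with the same 3 controls, so their differences are not independent. The median log2 fold change of the 9 at 24H was -0.0041.

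The balance between receptors was read from ratios within a library. The ratio of FLT1 to KDR counts, which does not depend on how libraries are scaled, was 0.129 to 0.137 in CTRL, 0.123 to 0.128 at 24H and 0.158 to 0.185 at 48H. The log2 ratio was -2.90 ± 0.0457 in CTRL, -2.98 ± 0.0325 at 24H and -2.55 ± 0.111 at 48H, and the 3 groups did not overlap. The difference from CTRL was -0.080 at 24H and 0.35 at 48H, each with an exact two-sided permutation p of 0.1, the smallest that 3 against 3 libraries allow (0.15 after adjustment over 9 tests of ratios).

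NRP2 and NRP1 had nearly equal counts in CTRL, with a ratio of 0.939 to 1.03, and at 48H the ratio was 1.17 to 1.30. The difference in log2 ratio at 48H was 0.29 against CTRL and 0.37 against 24H, each without overlap and with an exact permutation p of 0.1 (adjusted 0.15). At 24H against CTRL it was -0.078, with overlapping groups (exact permutation p = 0.3, adjusted 0.3). The log2 ratio of VEGFC to VEGFA was -1.09 ± 0.316 in CTRL, -0.88 ± 0.0386 at 24H and -1.32 ± 0.163 at 48H. Its differences from CTRL overlapped at both times (0.21 and -0.23, exact permutation p = 0.3 each), and the 48H libraries lay below those of 24H by 0.44 (exact permutation p = 0.1).

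**Figure D3:**
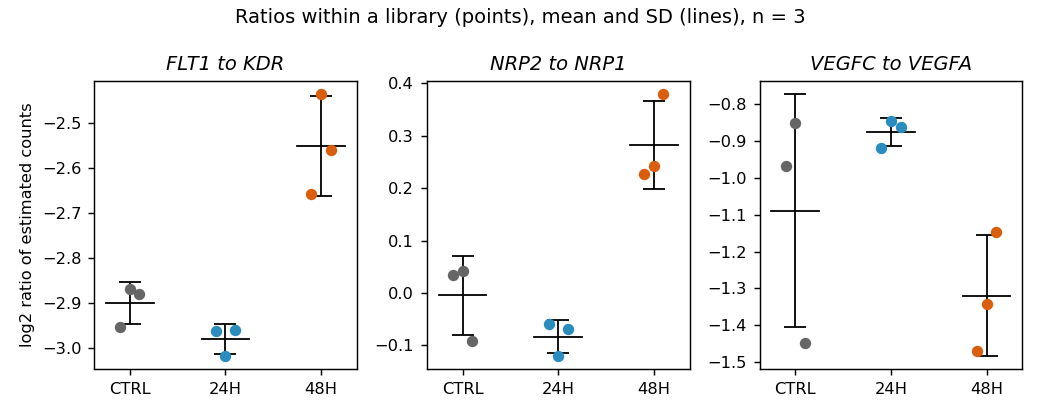
Log2 ratio of estimated counts within each library (vertical axes) for FLT1 to KDR, NRP2 to NRP1 and VEGFC to VEGFA in CTRL, TMAO 24H and TMAO 48H, points the libraries, lines the mean and bars the SD of 3. For the first and second ratio the 48H points lie above all others, with means of -2.55 and 0.28, while for VEGFC to VEGFA the 48H points overlap with those of CTRL.

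Part of the endothelial markers fell at 48H as well, when 5.29% of all tested genes were lower and 10.4% passed in either direction. Of the 11 markers, 6 fell (ROBO4, TIE1, CDH5, PECAM1, EGFL7 and ERG), 0 rose and 5 did not pass, of which VWF (0.091), ESAM (0.15) and EMCN (0.0050) had positive log2 fold changes. Their log2 fold changes had a median of -0.18 and a lowest value of -0.33 (ROBO4). Against 24H, 5 fell, among them ROBO4 (-0.34) and ERG (-0.21, lost in 3 of 9 fits with 1 library left out), and VWF rose (0.51). Their summed level was 2440 to 2695 CPM in CTRL, 2439 to 2562 at 24H and 2149 to 2317 at 48H. CTRL replicate 3 was the lowest control for PECAM1 and CDH5, as it was for KDR, NRP1, NRP2 and VEGFC. Fibroblast and mural markers summed to 938 to 1090 CPM in CTRL, 948 to 1023 at 24H and 595 to 653 at 48H, with the collagen genes COL1A2 (log2 fold change -1.08) and COL1A1 (-0.67) lower and ACTA2 (0.74) higher, and with DCN and LUM under 10 counts in every library. Lymphatic markers summed to 91.9 to 104.5 CPM in CTRL, 106.4 to 107.4 at 24H and 65.4 to 67.5 at 48H, nearly all of it PDPN. Epithelial markers, led by KRT18 (log2 fold change -0.24 at 48H), summed to 625 to 720 CPM in CTRL, 626 to 654 at 24H and 562 to 581 at 48H. TMAO 48H replicate 3 stood apart in EPCAM, at 1.248 CPM against 6.64 to 9.53 in the other 8 libraries, and in CDH1, at 1.13 against 2.78 to 5.13 CPM, and leaving it out changed no call of the 9 genes. The part of these markers in the fall of the VEGF genes was not tested, and in RNA from whole cultures fewer cells of a type and less RNA per cell cannot be told apart.

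The genes whose log2 CPM followed each changed gene most closely over the 9 libraries were, as a description, PRSS23, MMP2 and LTBP1 for NRP1 (Pearson r 0.998, 0.996 and 0.996) and DUSP4, ITGB5 and CRABP2 for PGF (0.993, 0.990 and 0.990). For KDR they were FRMD6, ITGA11 and PODXL (0.988, 0.988 and 0.987), for NRP2 PECAM1, PODXL and CTSA (0.992, 0.986 and 0.986), and for FLT4 CYP27C1, SERINC2 and CD81 (0.982, 0.972 and 0.972). Within the family, r was 0.983 for KDR with NRP2 and 0.981 for NRP1 with PGF. With the other genes, r lay between -0.54 and 0.40 for FLT1, between -0.40 and 0.14 for VEGFA and between -0.67 and 0.40 for VEGFB. The 9 points share 3 groups and their library scaling, so these values rest largely on the differences between groups.

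The semaphorins that share the neuropilins, the plexins that signal with them and GIPC1 were taken as 1 list. At 48H 5 of its 12 tested genes were lower and 0 higher (median -0.18 on the log2 scale). GIPC1, neither a semaphorin nor a plexin, did not pass (-0.13, edgeR adjusted p = 0.234). Of all tested genes, 5.29% were lower at 48H. PLXNA4, a plexin that forms semaphorin receptors with NRP1, fell by 0.58 on the log2 scale (SE 0.0754, edgeR adjusted p = 0.000496). The semaphorin SEMA3G fell by 0.91 (SE 0.148, adjusted p = 0.00216) and PLXNA2 by 0.36 (SE 0.0602, adjusted p = 0.00265). The other 2 were the semaphorin SEMA3C (-0.22, adjusted p = 0.0113) and its receptor PLXND1 (-0.29, adjusted p = 0.0103). At 24H 0 of the 12 passed. Between the time-points 4 of 12 were lower and 0 higher, namely PLXNA4 (-0.62), SEMA3G (-0.60), PLXNA2 (-0.38) and SEMA3C (-0.21). SEMA3C was lost in 3 of 9 fits with 1 library left out. The SEMA3G call between the time-points (edgeR adjusted p = 0.0264) was not checked in those fits. For this list and those that follow, 3.76% of all tested genes were lower against 24H and 7.52% passed in either direction.

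Of 45 tested transducers of the receptor signal, 2 rose at 48H and 3 fell, with a median of 0.015 on the log2 scale. Those 5 are a share near the 10.4% of all tested genes that passed in either direction. The transcription factor NFATC3 (0.17) and the p38 kinase MAPK14 (0.15) rose, with edgeR adjusted p of 0.0168 and 0.0308. PLCG1, the phospholipase that docks on activated KDR, was at -0.22 (adjusted p = 0.0207), AKT2 at -0.16 (adjusted p = 0.0434) and NFATC2 at -0.43 (adjusted p = 0.0480). Each of these 5 calls was lost in at least 2 of the 9 fits that left out 1 library, AKT2 in 8 and NFATC2 in 7 of them. Between the time-points 1 rose (PIK3CB, 0.22) and 2 fell (NFATC2, -0.47, and NOS3, the endothelial nitric oxide synthase, -0.24), calls that were lost in 7 (PIK3CB), 6 (NFATC2) and 8 (NOS3) of 9 such fits.

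Of 25 partners, phosphatases and traffic proteins of the receptors, 5 fell at 48H and 1 rose, with a median of 0.017. Over all tested genes, 5.29% fell at 48H and 10.4% passed in either direction. PTPRB (VE-PTP), the endothelial phosphatase that acts on KDR, TIE2 and VE-cadherin, fell by 0.44 on the log2 scale (SE 0.0683, edgeR adjusted p = 0.00167). CDH5, which holds KDR at cell junctions, was at -0.26 (adjusted p = 0.0181) and HGS, which sorts receptors in endosomes, at -0.21 (adjusted p = 0.0201), and with 1 library left out these calls were lost in 3 and 4 of 9 fits. PTPN11 (SHP2) rose by 0.22 (adjusted p = 0.00452). Against 24H, 4 fell and 3 rose, among them PTPRB (-0.45), HGS (-0.24) and the endocytic adaptor EPN1 (-0.17), and PTPRJ (0.25), SDC2 (0.22) and PTPN11 (0.17), with EPN1 lost in 5, PTPN11 in 4 and HGS in 1 of 9 fits.

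For VEGFC maturation and lymphatic regulation, 3 of 11 tested genes fell at 48H, against 5.29% of all tested genes, and 0 rose (median -0.11). These were PDPN (-0.59, edgeR adjusted p = 2.02e-05), the protease FURIN that cuts the VEGFC precursor (-0.17, adjusted p = 0.0180) and the transcription factor NR2F2 (-0.17, adjusted p = 0.0319). With 1 library left out, FURIN was lost in 3 and NR2F2 in 5 of 9 fits. FURIN was also lost with the correction for GC content and length, and NR2F2 with only the 2 groups fitted and with a replicate block. Between the time-points PDPN (-0.69) and FURIN (-0.16, lost in 5 of 9 fits) were lower and none was higher. Among 11 tested genes of oxygen sensing and VEGFA transcription, 1 passed at 48H, HIF3A at -0.55 (adjusted p = 0.0185), with a list median of 0.070. This is a share below the 10.4% of all tested genes, and the call was lost in 4 of 9 fits with 1 library left out. HIF1A, the main oxygen-regulated activator of VEGFA, was at 0.051 (adjusted p = 0.444) and EPAS1 at 0.073 (adjusted p = 0.452). HIF3A was also the single gene of that list to pass against 24H (-0.53, lost in 5 of 9 fits).

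Of 24 tested genes known to be induced by VEGF in endothelium, 3 fell at 24H, against 0.0950% of all tested genes, and 0 rose. These were the immediate early genes FOS (log2 fold change -1.14, SE 0.127, edgeR adjusted p = 0.00301) and EGR1 (-1.05, SE 0.139, adjusted p = 0.0107) and the MAP kinase phosphatase DUSP1 (-0.60, SE 0.0804, adjusted p = 0.0107). Many stimuli besides VEGF induce them. Without TMAO 24H replicate 2 all 3 calls were lost (-1.08, -0.93 and -0.53, with adjusted p of 0.0600, 0.0848 and 0.0848). EGR1 and DUSP1 were also lost without CTRL replicate 1 (-1.05 and -0.61, adjusted p = 0.0520 each) or CTRL replicate 2 (-1.01 and -0.55, adjusted p = 0.102 and 0.104). With a replicate block in the fit EGR1 and DUSP1 were lost too (-1.05 and -0.61, adjusted p = 0.0689 and 0.0568).

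At 48H, 2 genes of the same list rose and 3 fell (median -0.034), where 10.4% of all tested genes passed in either direction. DUSP1 (0.63, edgeR adjusted p = 0.000419) and DUSP5 (0.32, adjusted p = 0.0227) rose, whereas TFPI2, a protease inhibitor of the matrix (-0.39, adjusted p = 0.00176), the peptide ligand APLN (-0.24, adjusted p = 0.00171) and the pericyte-recruiting factor PDGFB (-0.22, adjusted p = 0.0246) fell. DUSP5 and PDGFB were each lost in 4 of 9 fits with 1 library left out. Against 24H, 6 rose and 3 fell, with the smallest adjusted p for FOS (1.37), EGR1 (1.28) and DUSP1 (1.23) and for TFPI2 (-0.43), MMP1 (-0.34) and APLN (-0.29). The MMP1 call was lost in 2 of 9 fits with 1 library left out.

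In the angiopoietin and TIE system (median -0.44), 3 of 7 tested genes fell at 48H, against 5.29% of all tested genes, and 0 rose. They were PTPRB, the orphan receptor TIE1 (-0.26, edgeR adjusted p = 0.00570) and ANGPTL4 (-0.45, adjusted p = 0.00962, lost in 2 of 9 fits with 1 library left out). Against 24H, 4 fell, ANGPTL4 by 0.62 and TIE1 by 0.22 among them, and 0 rose. The TIE1 call against 24H was lost in 3 of 9 fits with 1 library left out. None of the 7 passed at 24H.

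Of 23 tested genes for other angiogenic factors and their receptors, 2 fell at 24H, the matricellular factors CTGF (-0.55, SE 0.0579) and CYR61 (-0.54, SE 0.0612), with an edgeR adjusted p of 0.00301 each. Both calls were lost without TMAO 24H replicate 2 (-0.51, adjusted p = 0.0600, and -0.52, adjusted p = 0.0614). They were also lost with a replicate block in the fit (-0.55 each, adjusted p = 0.0534 for CTGF and 0.0568 for CYR61). At 48H 2 rose, CYR61 (0.44, adjusted p = 0.000755) and the growth factor FGF2 (0.38, adjusted p = 0.000639), and 8 fell (median -0.14), with the smallest adjusted p for the netrin receptor UNC5B (-0.53, adjusted p = 0.000218) and VASH1, an inhibitor of angiogenesis (-0.35, adjusted p = 0.000772). Over all tested genes, 10.4% passed in either direction at 48H and 0.0950% at 24H. Between the time-points CYR61 (0.99), CTGF (0.73) and FGF2 (0.47) rose and 5 genes fell, UNC5B by 0.50 and VASH1 by 0.46.

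**Figure D4:**
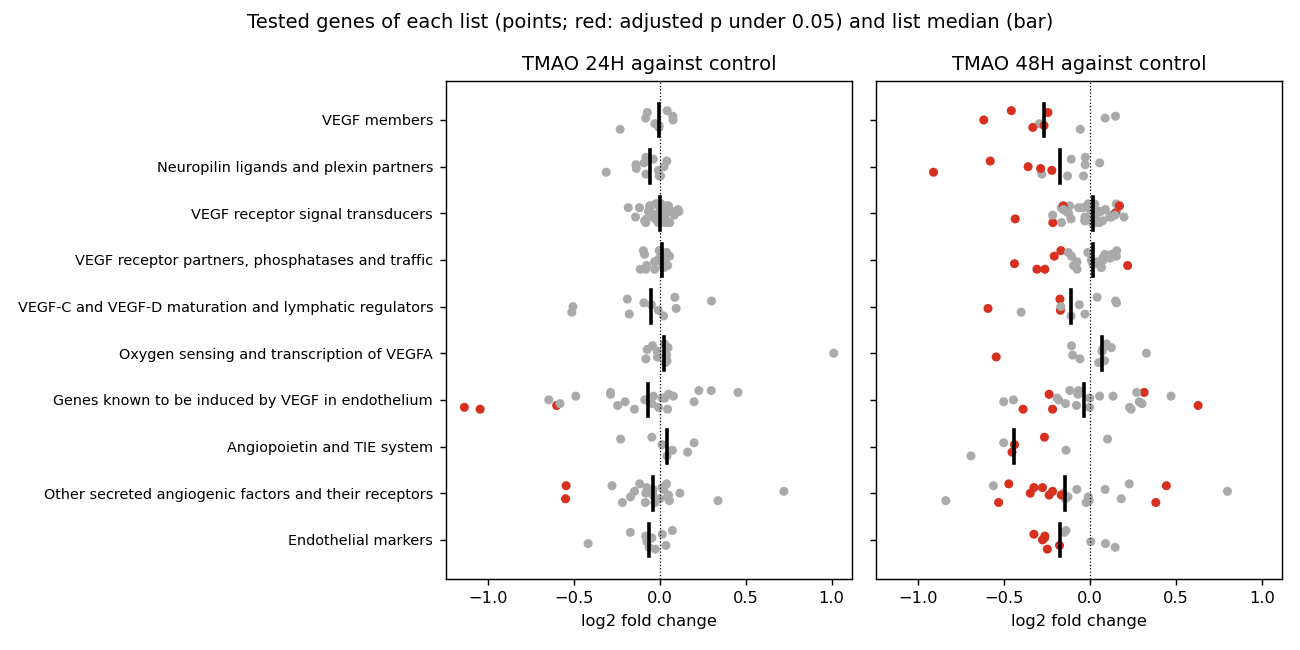
Log2 fold change (horizontal axes) at 24H and at 48H against control of every tested gene in the 9 VEGF genes and 9 related lists (rows), each point a gene, red where the edgeR adjusted p was under 0.05, black bars the list medians. At 24H the red points are 5 genes, FOS, EGR1, DUSP1, CTGF and CYR61, all lower; at 48H the VEGF genes have a median of -0.27 with 5 red points, all lower, and the transducers lie on both sides of 0.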

How the data were processed

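RNA from HMEC-1 was sequenced in 9 libraries, 3 per group, and samples were grouped by their labels. The authors trimmed reads with Trim Galore, processed them with the nf-core RNA-seq pipeline and deposited expected counts per gene (estimated counts, not whole numbers and not normalised) for 29740 gene symbols. The quantifier, genome build and annotation are not given in the sources used here, so no coordinates of genes are taken from the files, and an antisense or overlapping gene may share reads. After rounding, edgeR 4.0.16 (R 4.3.3) fitted the 9 libraries together by quasi-likelihood, with TMM factors, on the 14740 genes that filterByExpr kept (common biological coefficient of variation 0.0744), with Benjamini-Hochberg adjustment over all tested genes. Standard errors came from the F statistic. The study's own rule adds a 1.4-fold change. Ratios within libraries used a pseudocount of 0.5 and an exact permutation test (scipy 1.17.1). Transcript lengths and GC content came from GENCODE release 29, which matched 13247 tested genes (89.9%). Sequences were taken from RefSeq, GRCh38.p14.

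All 9 genes are named in full. From each related list, up to 3 genes per direction with the smallest adjusted p among those that passed are named in each comparison, with the 3 most correlated genes for each VEGF gene that passed. HIF1A, EPAS1 and PLXND1, and SEMA3C and the markers PECAM1, EGFL7 and ERG at 48H against control, were named outside this rule after their values were seen. The genes and lists were chosen with earlier results of these data known. The fit was tested on simulated data. An item of the related lists is not reported here. Alternatives were DESeq2 1.42.0, a fit of only the compared groups, RLE factors, other count filters, the older quasi-likelihood fit, unrounded counts, removal of ribosomal RNA genes, a replicate block, a correction for GC content and length, and leaving out each library.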

Additional observations from a re-analysis of the deposited data

Results flagged for a closer look

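The change at 48H differed from the change at 24H for 4 of the 9 VEGF genes, by the direct edgeR test of 48H against 24H, which is the difference between both changes because they share their controls. On the log2 scale the 48H change minus the 24H change was -0.70 for NRP1, -0.50 for PGF, -0.33 for NRP2 and -0.26 for KDR. All 3 libraries at 48H lay below all 3 at 24H for each of them.

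Among the related genes named for that comparison, the same difference was negative for COL1A2 (-1.06), PDPN (-0.69), PLXNA4 (-0.62), ANGPTL4 (-0.62), SEMA3G (-0.60), COL1A1 (-0.59), HIF3A (-0.53), UNC5B (-0.50), NFATC2 (-0.47), VASH1 (-0.46), PTPRB (-0.45), TFPI2 (-0.43), PLXNA2 (-0.38), ROBO4 (-0.34), MMP1 (-0.34), APLN (-0.29), HGS (-0.24), NOS3 (-0.24), TIE1 (-0.22), SEMA3C (-0.21), ERG (-0.21), EPN1 (-0.17) and FURIN (-0.16). It was positive for FOS (1.37), EGR1 (1.28), DUSP1 (1.23), CYR61 (0.99), CTGF (0.73), ACTA2 (0.54), VWF (0.51), FGF2 (0.47), PTPRJ (0.25), PIK3CB (0.22), SDC2 (0.22) and PTPN11 (0.17). DUSP1 and CYR61 passed in opposite directions at the 2 times. Groups of 3 libraries were too small to test a single library as an outlier.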

How the results depend on the processing

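With 3 libraries per group, an exact test of 1 gene cannot go below 0.1. VEGFC had the fewest counts of the VEGF genes, and whether this bears on its missed call was not tested. No VEGF gene passed at 24H under any alternative, and NRP1, PGF and KDR passed at 48H in all of them other than the 1.4-fold rule, which NRP1 alone met. The count of VEGF genes that passed at 48H was 3 to 5 when 1 library was left out (3 without CTRL replicate 1, CTRL replicate 2 or TMAO 48H replicate 2), and 2 to 4 against 24H. With the 1.4-fold rule it was 1 at 48H and 2 against 24H. Over all genes, the count at 24H (14) was 55 with DESeq2, 22 with 2 groups fitted, 7 with the 1.4-fold rule and 0 to 24 with 1 library left out (0 without TMAO 24H replicate 2). At 48H (1536) it was 981 with 2 groups, 265 with the 1.4-fold rule and 700 to 1594 with 1 library left out. Against 24H (1109) it was 251 with the 1.4-fold rule and 558 to 1282 with 1 library left out. Using the longest transcript kept 5 of 9 ranks.

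Same-numbered libraries did not deviate together (correlations of -0.12 to 0.091 over 9 pairs, against -0.10 to 0.16 over 18 pairs with different numbers). With 3 libraries per group, these correlations cannot decide whether same-numbered libraries came from the same experiment. With the replicate block the counts over all genes were 1 at 24H, 944 at 48H and 730 against 24H, and 4 VEGF genes passed at 48H, FLT4 being lost at -0.25 (adjusted p = 0.0693).

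Signs turned only for changes that had not passed. At 24H, NRP2 was 0.0055 with the correction for GC content and length and -0.091 to 0.043 with 1 library left out, VEGFC -0.14 to 0.080 (0.080 without CTRL replicate 2) and KDR -0.069 to 0.056 (0.056, 0.0070 and 0.016 without CTRL replicate 1, CTRL replicate 2 and TMAO 24H replicate 2). At 48H, VEGFA was -0.099 to 0.00097 (0.00097 without CTRL replicate 3).

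Of the list genes that the naming rule gave at 48H against control, 18 of 32 passed in all alternatives, the 1.4-fold rule not counted (genes named outside the naming rule were not run); the other 14 all lost the call without CTRL replicate 2, and 12 of them also without TMAO 48H replicate 2. Of these 48H calls, AKT2, CDH5, HGS, MAPK14, NFATC2, NR2F2, PDGFB and PLCG1 were also lost with the replicate block. AKT2, FURIN, HGS, MAPK14, NFATC3 and PDGFB were lost with the correction for GC content and length. Against 24H 21 of 34 passed in all, and at 24H 0 of 5.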
